A study of Homo sapiens with 6 samples.

Results

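Receptor tyrosine kinase genes were followed on 6 Affymetrix U133 Plus 2.0 arrays of HMLE cells, an immortalised human mammary epithelial line. The gene set held 40 named receptors from 12 families. A member was measured where at least 1 probe set, a group of short probes on the array, was annotated to its symbol alone. By that rule 38 of the 40 members were measured, among 19775 genes in all, by 127 probe sets. DDR1 was matched by 4 probe sets that are annotated jointly with a microRNA gene, and EPHB2 had no probe set of its own, so both were not analysed here. The Twist line carried a pBabe-Twist retrovirus, which encodes a transcription factor used to drive epithelial-mesenchymal transition, and the control line carried a pBabe-shGFP retrovirus. Each line was sampled at Cmp302 5 µM and Cmp302 10 µM and with the solvent DMSO, with 1 array per group. Cmp302 is a small molecule that the labels name by this code alone. All cells were grown with serum, insulin, hydrocortisone and EGF, so agonists of EGFR and INSR were present in every group. The sample titles and the treatment protocol give 5 µM and 10 µM for 6 h, while the source names give a constant 2 µM, for 4 h on one array and 8 h on the other. Arrays are named here by title, and the labels do not settle if the Cmp302 arrays differ in dose or in time. The promoter that drove Twist, and whether the lines were clones or pools, are not given in the sources used here.

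Receptor tyrosine kinases are membrane proteins that bind a ligand outside the cell and phosphorylate tyrosines inside it. The phosphorylated tails recruit adaptors that feed the RAS-MAPK, PI3K-AKT and phospholipase C pathways, and feedback inhibitors and ubiquitin ligases then switch the signal off. Mammary epithelial cells depend on ERBB receptors for growth, while PDGF receptors and the fibrillar-collagen receptor DDR2 are known mainly from mesenchymal cells. Arrays measured RNA only, so receptor protein, its phosphorylation and its cleavage were not measured.

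The promoters of the receptors with the widest gaps between the lines are shown first, since Twist proteins bind E-boxes, the DNA motif CANNTG. Each sequence runs 5′ to 3′ over 300 bases, from 250 before the annotated start to 50 after it, as held by RefSeq for GRCh38.p14. Capitals mark CANNTG, which is its own reverse complement and so was searched on both strands at once. DDR2 and EPHA4 had the widest gaps toward the Twist line, and FGFR3 and MST1R the widest toward the control line, among members with a window.
DDR2 (chr1:162630613-162630912, plus strand): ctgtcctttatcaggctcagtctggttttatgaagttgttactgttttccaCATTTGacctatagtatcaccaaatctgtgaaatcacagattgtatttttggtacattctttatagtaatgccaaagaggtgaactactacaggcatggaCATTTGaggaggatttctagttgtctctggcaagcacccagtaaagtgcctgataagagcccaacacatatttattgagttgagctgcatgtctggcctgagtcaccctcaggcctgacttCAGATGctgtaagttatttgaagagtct
EPHA4 (chr2:221574153-221574452, minus strand): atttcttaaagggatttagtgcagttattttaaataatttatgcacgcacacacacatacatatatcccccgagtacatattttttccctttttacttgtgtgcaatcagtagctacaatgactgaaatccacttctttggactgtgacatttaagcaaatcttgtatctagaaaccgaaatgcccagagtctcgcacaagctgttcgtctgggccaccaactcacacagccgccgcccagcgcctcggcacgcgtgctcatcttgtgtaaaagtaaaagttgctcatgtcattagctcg
FGFR3 (chr4:1793043-1793342, plus strand): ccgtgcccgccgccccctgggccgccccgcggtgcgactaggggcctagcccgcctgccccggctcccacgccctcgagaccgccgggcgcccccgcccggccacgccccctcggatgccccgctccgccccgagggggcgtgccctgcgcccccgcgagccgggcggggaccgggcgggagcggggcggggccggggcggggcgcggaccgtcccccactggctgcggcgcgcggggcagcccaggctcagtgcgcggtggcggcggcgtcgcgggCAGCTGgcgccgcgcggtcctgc
MST1R (chr3:49903824-49904123, minus strand): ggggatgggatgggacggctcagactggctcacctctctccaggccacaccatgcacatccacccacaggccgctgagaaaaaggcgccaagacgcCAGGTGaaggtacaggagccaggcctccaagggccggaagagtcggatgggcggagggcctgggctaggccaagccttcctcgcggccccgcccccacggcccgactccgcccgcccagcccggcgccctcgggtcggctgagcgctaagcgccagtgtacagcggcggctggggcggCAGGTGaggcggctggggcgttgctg
The DDR2 window held 3 matches, the EPHA4 window 0, the FGFR3 window 1 and the MST1R window 2. Both matches of MST1R read CAGGTG, the form also bound by SNAIL and ZEB repressors. Windows of 35 of the 40 members are counted here, without ERBB3, FGFR1, FGFR2, FLT4 and EPHB6. CANNTG occurred in 5 of 7 windows of members called higher in the Twist line and in 3 of 5 windows of members called lower. It occurred in 20 of 35 member windows (57.1%) and in 24117 of all 35116 promoter windows (68.7%). CAGGTG or its reverse complement CACCTG, which are both also counted as CANNTG, occurred in 5 of 35 member windows (14.3%) and in 20.6% of all windows. Base composition differed among the 4 printed windows, with G and C making up 41% of the DDR2 window and 43% of the EPHA4 window, against 86.3% of the FGFR3 window and 71.3% of the MST1R window. A match describes the letters only, and binding was not measured.

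Signals are log2 values, and values below 3.71, the median of all signals, were set to that floor. A gene at the floor has only an upper bound, so a fold against it is given as "at least". A fitted difference of such a gene uses the floor as the value of that line. Between 11646 and 11841 genes stood above the floor on each array. TWIST1, read by 1 probe set, had 11.57, 11.96 and 11.35 in the Twist line with DMSO, 5 µM and 10 µM, against 10.70, 10.51 and 10.48 in the control line, a difference of 1.06 ± 0.21 (SE, limma adjusted p = 0.0166). The 6 epithelial markers averaged 4.75 to 4.92 in the Twist line and 12.79 to 13.09 in the control line, and CDH1, EPCAM and KRT5 were at the floor on all 3 Twist arrays. The defining markers of the labelled epithelial cell type were thus bright in control cells and, apart from KRT18 at 8.26 to 9.36, low or at the floor in Twist cells. The 6 mesenchymal markers averaged 12.34 to 12.55 in the Twist line and 9.50 to 9.55 in the control line. ZEB1 and ZEB2 had the widest gaps of these, 6.62 and 6.14. VIM, CDH2 and FN1 were bright in control cells too, at 11.27, 10.88 and 13.27 on average. FN1 was not called (0.26, limma adjusted p = 0.28). Of the other cell types a culture could hold, 5 of 6 endothelial markers, 4 of 5 blood markers and 3 of 4 fat cell markers were at the floor on all arrays. PECAM1 and FABP4 were the exceptions that stood higher in the Twist line, by 3.57 and 2.86, and the part of other cells in the receptor values was not tested.

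The receptor set differed widely between the lines. Twist cells had RNA of DDR2, EPHA4, PDGFRA, PDGFRB, EPHB6, INSR, FGFR1 and ROR1 at 7.95-fold or more above control cells on average, while FGFR3, ERBB3, MST1R and EPHA1 were clearly measured in control cells and low or at the floor in Twist cells. EGFR, MET, IGF1R and RYK were bright in both. Of the 38 members, 27 were above the floor on at least 1 array, 20 on all 6, and 11 were at the floor on all 6. All 27 entered the fit of 12478 genes. PDGFRA and DDR2 passed this filter through the Twist line alone, and MST1R, EPHA1 and EPHB3 through the control line alone. The direction of any gap of these 5 was thus set by the filter, and their share is no support for a switch. EPHB3 lay so close to the floor that its gap was -0.08 and was not called.

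The line difference was fitted over the 3 treatments, so its error comes from the spread of the gap across DMSO, 5 µM and 10 µM. The limma step draws the spread of each gene toward that of all fitted genes with similar signal. The p-values thus measure only spread between these arrays, pooled in part over genes. With limma at an adjusted p under 0.05, 9 of 27 members were higher in the Twist line, where 13.7% of all fitted genes were, and 6 of 27 were lower, where 14.9% of all fitted genes were. Without the Twist DMSO array 11 were higher and 11 lower, where 29.7% and 29.9% of all genes were in that fit. Without the control DMSO array the counts were also 11 and 11, where 29.3% and 30.6% of all genes were. The median size of the difference was 1.49 over the fitted members and 0.39 over all genes. This median and the counts given here include the members that passed the filter through 1 line alone. The members were also chosen with earlier results of these data known, so the contrast with all genes is a description only. In single pairs with no test, 8 members were at least 2-fold higher and 7 lower in Twist cells with DMSO, where 11.9% and 13.6% of all genes were. At 5 µM the counts were 8 and 6 members, with 12.1% and 12.6% of all genes. At 10 µM they were 8 and 7 members, with 14.8% and 14.1% of all genes. The 3 Twist arrays lay above the 3 control arrays by 2-fold or more for 8 members and below them for 4, where 6.06% and 7.89% of all genes did so. In these bulk samples, fewer cells with a receptor and less of its RNA per cell cannot be told apart.

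**Figure D1:**
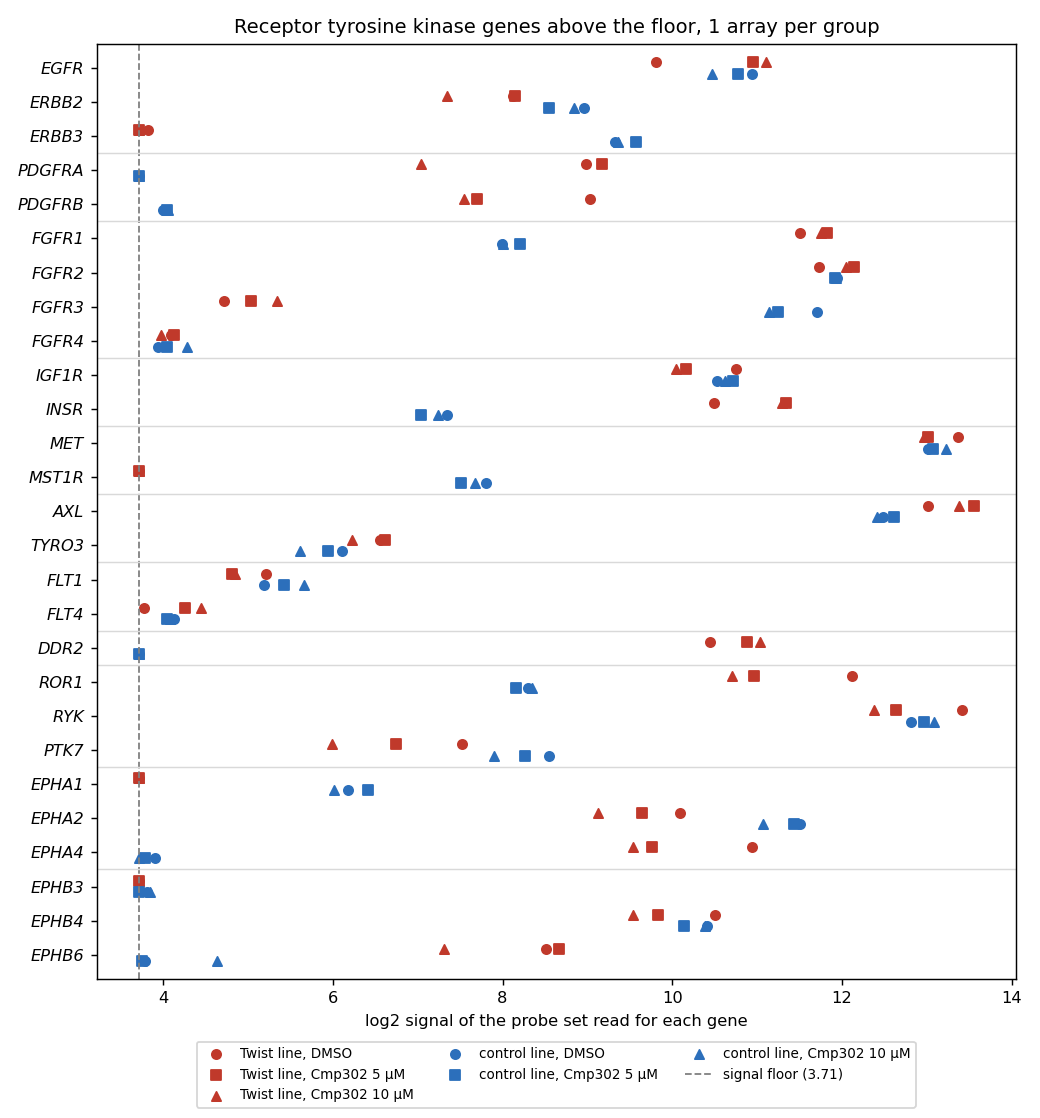
Log2 signal (x axis) of the 27 receptor genes above the floor, by family, for the 3 Twist arrays (red, upper point row) and the 3 control arrays (blue, lower point row), with the floor of 3.71 as a dashed line. DDR2 spans 10.44 to 11.04 in the Twist line with the control arrays at the floor, and FGFR3 spans 4.72 to 5.34 in the Twist line against 11.14 to 11.71 in the control line.

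The ERBB family, the receptors of EGF and neuregulins, split between its members. ERBB3, a neuregulin receptor with little kinase activity of its own, had 3.82 in Twist cells with DMSO and the floor at 5 µM and 10 µM, against 9.33, 9.57 and 9.36 in control cells. The groups did not overlap, and Twist cells were lower by 45.6-fold with DMSO. The fitted difference of -5.67 ± 0.18 was called by limma (adjusted p = 2.7e-05), and a further probe set gave -4.58. EGFR, the receptor of EGF and TGF-alpha, had 9.81, 10.95 and 11.11 in Twist cells and 10.94, 10.78 and 10.47 in control cells. It was lowest of the 6 in Twist cells with DMSO and highest in Twist cells at 10 µM, so the lines overlapped and the mean gap was -0.11 (limma adjusted p = 0.869). ERBB2, the partner receptor with no known ligand, had 8.12, 8.15 and 7.34 in Twist cells and 8.96, 8.55 and 8.84 in control cells. Its Twist arrays all lay below the control arrays, and the gap of -0.92 missed the threshold (limma adjusted p = 0.0648). ERBB4 was at the floor on every array.

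The PDGF receptors, which drive growth and migration of mesenchymal cells, were present in the Twist line. PDGFRA had 8.98, 9.17 and 7.04 in Twist cells and the floor on all 3 control arrays, at least 38.5-fold higher with DMSO and at least 10.1-fold at 10 µM. The fit, with the floor as the control value, gave 4.68 ± 0.44 (limma adjusted p = 0.00104), while a dim further probe set gave 0.26. PDGFRB had 9.03, 7.70 and 7.55 in Twist cells and 4.00, 4.04 and 4.06 in control cells, a difference of 4.06 ± 0.34 (limma adjusted p = 0.000643). Both genes were highest or near highest with DMSO and lowest at 10 µM, yet no Twist array reached a control array. KIT, the stem cell factor receptor of the same family, was at the floor throughout.

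The FGF receptors, which need heparan sulfate beside their ligand, moved in opposite directions. FGFR1 had 11.51, 11.82 and 11.76 in Twist cells and 7.99, 8.21 and 8.00 in control cells. It stood 11.5-fold higher in Twist cells with DMSO, and the fit gave 3.63 ± 0.19 (limma adjusted p = 0.000122). Of its 5 fitted probe sets 4 were called higher and the range was 0.35 to 3.63, and the median over probe sets gave 1.16. FGFR3 had 4.72, 5.03 and 5.34 in Twist cells and 11.71, 11.25 and 11.14 in control cells. It was 127-fold lower in Twist cells with DMSO, with a fitted difference of -6.34 ± 0.29 (limma adjusted p = 6.9e-05) and no overlap. FGFR4 lay near the floor in both lines, between 3.94 and 4.28.

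FGFR2 gave readings that depended on the probe set. The brightest, used by the rule for reading a gene, had 11.73, 12.14 and 12.05 in Twist cells and 11.94, 11.92 and 11.93 in control cells, a difference of 0.04 (limma adjusted p = 0.902). The next brightest was at the floor on all 3 Twist arrays, against 8.73, 9.11 and 8.80 in control cells, and a further set was at the floor in Twist cells against 6.53, 7.19 and 6.72. In the fit over 24611 probe sets these gave -5.17 and -3.10, with limma adjusted p = 5e-05 and 0.000197. FGFR2 is known for an epithelial IIIb and a mesenchymal IIIc isoform. Which transcripts each probe set reads was not tested, and FGFR2 is counted as not called.

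Among the insulin-family receptors, INSR, which binds insulin and IGF2, had 10.49, 11.34 and 11.29 in Twist cells and 7.35, 7.04 and 7.24 in control cells. It was 8.82-fold higher in Twist cells with DMSO, and the fit gave 3.83 ± 0.29 (limma adjusted p = 0.000462). Of its 4 fitted probe sets 3 were called higher, at 1.93 to 3.83, and a dim one gave 0.21. IGF1R, the main IGF receptor, had 10.75, 10.16 and 10.04 in Twist cells and 10.53, 10.72 and 10.62 in control cells. The Twist arrays spanned the control values, and the gap of -0.31 missed the threshold (limma adjusted p = 0.426).

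The HGF receptor MET and its relative MST1R, the receptor of macrophage-stimulating protein, differed from each other. MET had 13.37, 13.02 and 12.97 in Twist cells and 13.02, 13.07 and 13.23 in control cells, so the lines overlapped with a mean gap of 0.01 (limma adjusted p = 0.975). MST1R was at the floor on all 3 Twist arrays, against 7.80, 7.51 and 7.67 in control cells. Twist cells were at least 17-fold lower with DMSO, and the fit gave -3.95 ± 0.15 (limma adjusted p = 4.1e-05).

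In the TAM family, which binds GAS6 and protein S, AXL had 13.02, 13.56 and 13.38 in Twist cells and 12.49, 12.62 and 12.42 in control cells. The arrays did not overlap, but the gap of 0.81 ± 0.18 was under 2-fold and lost its call in 7 of 15 alternatives (limma adjusted p = 0.0243), while the dimmer AXL probe set gave 3.45. TYRO3 had 6.55, 6.61 and 6.23 in Twist cells and 6.11, 5.94 and 5.61 in control cells and was not called (0.57, limma adjusted p = 0.0546). MERTK was at the floor.

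DDR2, a receptor of fibrillar collagen, had 10.44, 10.88 and 11.04 in Twist cells and the floor in control cells, the widest gap of the set at 7.07 ± 0.22 with the floor as the control value (limma adjusted p = 2.6e-05). It was at least 106-fold higher with DMSO. All 4 of its probe sets were called higher, at 1.11 to 7.17. The VEGF and angiopoietin receptors of endothelial cells were largely absent, as KDR, TEK and TIE1 were at the floor. FLT1 had 5.21, 4.81 and 4.85 in Twist cells and 5.19, 5.42 and 5.66 in control cells, and FLT4 stayed between 3.77 and 4.44 on all arrays.

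Of the WNT-binding receptors, ROR1, a WNT5A receptor, had 12.12, 10.96 and 10.71 in Twist cells and 8.30, 8.16 and 8.35 in control cells. It was 14.1-fold higher in Twist cells with DMSO, the fit gave 2.99 ± 0.33 (limma adjusted p = 0.00183), and all 3 probe sets were called higher. PTK7, a pseudokinase of planar cell polarity, had 7.52, 6.75 and 5.99 in Twist cells and 8.55, 8.26 and 7.90 in control cells. The groups did not overlap and the fit gave -1.49 ± 0.25 (limma adjusted p = 0.00902), but the second PTK7 probe set gave 0.33, in the other direction and not called, and the call was lost in 3 of 16 alternatives. RYK, a further pseudokinase that binds WNTs, had 13.42, 12.64 and 12.38 in Twist cells and 12.81, 12.97 and 13.09 in control cells, with overlap and no call (-0.15, limma adjusted p = 0.772). ROR2 was at the floor.

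The EPH receptors, which bind membrane-held ephrins on neighbouring cells, changed in both directions. EPHA4, which binds ephrins of both classes, had 10.94, 9.76 and 9.54 in Twist cells and 3.90, 3.79 and 3.71 in control cells, 132-fold higher with DMSO and 6.28 ± 0.30 in the fit (limma adjusted p = 7.6e-05). All 4 of its fitted probe sets were called higher, at 2.90 to 6.28. EPHB6, which lacks kinase activity, had 8.51, 8.67 and 7.31 in Twist cells and 3.79, 3.75 and 4.63 in control cells, with a fitted difference of 4.10 ± 0.47 (limma adjusted p = 0.00212). Its gap was narrowest at 10 µM, at 6.40-fold, where the Twist array was lowest and the control array highest.

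EPHA2, the ephrin-A1 receptor abundant in epithelia, had 10.09, 9.64 and 9.12 in Twist cells and 11.51, 11.44 and 11.07 in control cells. Twist cells were 2.68-fold lower with DMSO, and the fit gave -1.73 ± 0.21 (limma adjusted p = 0.00261). EPHA1, also a receptor of ephrin-A1, was at the floor in Twist cells against 6.18, 6.42 and 6.01 in control cells, at least 5.52-fold lower in Twist cells with DMSO and -2.49 ± 0.14 in the fit (limma adjusted p = 0.000153). EPHB4, the ephrin-B2 receptor, had 10.50, 9.83 and 9.54 in Twist cells and 10.41, 10.14 and 10.39 in control cells, with overlap and no call (-0.36, limma adjusted p = 0.366). EPHB3 lay at or just above the floor everywhere, up to 3.85, and EPHA3, EPHA5, EPHA7 and EPHB1 were at the floor.

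**Figure D2:**
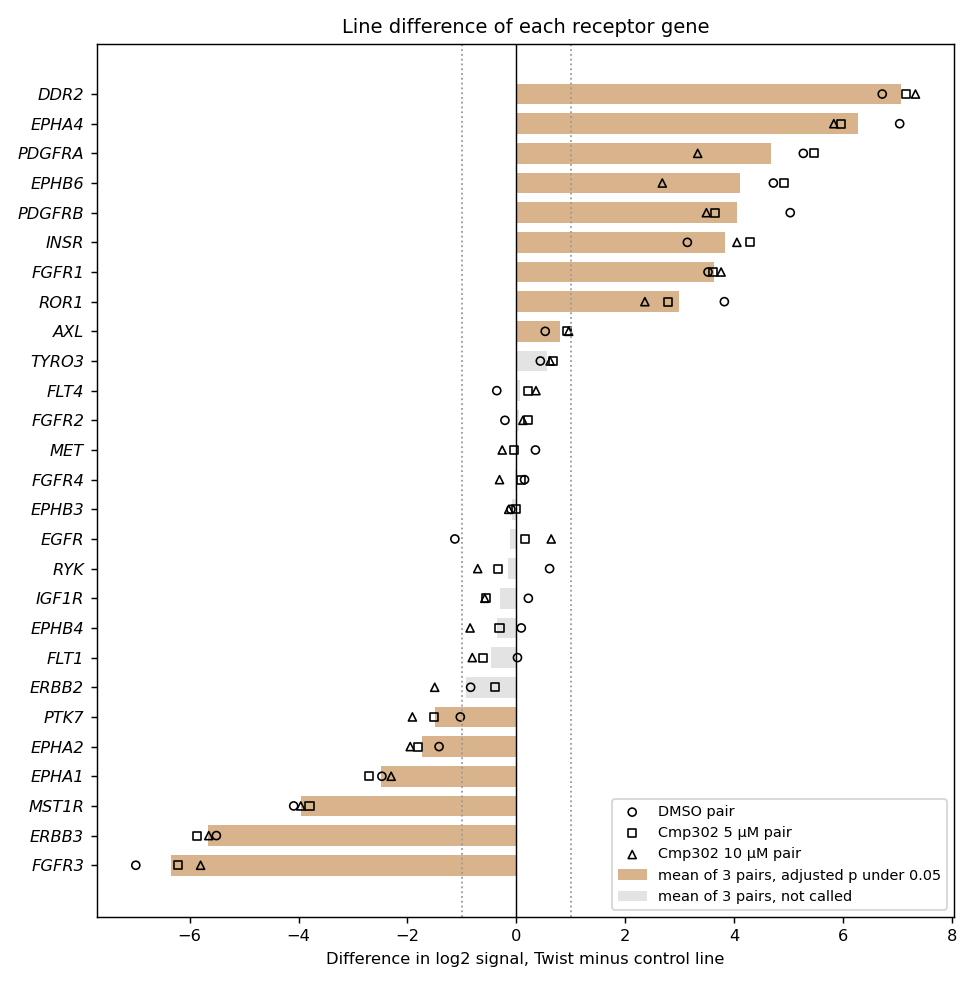
Difference in log2 signal, Twist minus control line (x axis), for 27 receptor genes, with the mean of the 3 treatment pairs as a bar and each pair as an open symbol. Bars run between 7.07 for DDR2 and -6.34 for FGFR3, the dotted lines mark 2-fold, and the EGFR pairs lie on both sides of 0, at -1.13, 0.16 and 0.64.

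With Cmp302, EGFR RNA rose in Twist cells and PDGFRB, EPHA4, PTK7, EPHA2, EPHB4 and RYK fell across the 3 levels. In control cells no member passed the test, and the widest change was 0.85, for EPHB6 at 10 µM. The trend per level was fitted with DMSO, 5 µM and 10 µM as equal steps. With limma at an adjusted p under 0.05, 2 of 27 members rose in Twist cells, where 10.9% of all genes did, and 7 fell by the probe set read, ROR1 among them, where 11.3% of all genes did. In control cells 0 members rose and 0 fell, with 0% of all genes in either direction, and at an unadjusted p under 0.05 the counts were 2 members each way, among 253 and 684 genes. The difference of the trends between the lines was called for 0 members in either direction, where 0.745% of all genes were higher and 0.793% lower. Unadjusted, 3 members were higher and 11 lower, where 20.6% and 18.9% of all genes were, and no member is shown to respond differently in the 2 lines by the fit to all arrays. Without the Twist array at 5 µM, 2 were called higher and 5 lower, where 9.2% and 10.8% of all genes were. With both Cmp302 arrays coded as 1 level, 3 were called higher and 5 lower, where 12.6% and 13.9% of all genes were.

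In single comparisons with no replicate check, 24 members were above the floor in Twist cells with DMSO or the Cmp302 level compared. At 5 µM, 1 was at least 2-fold higher and 3 were lower than with DMSO, where 4.42% and 5.01% of all genes were. At 10 µM, 1 was higher and 7 were lower, where 8.04% and 8.46% of all genes were. Of 25 members in control cells, 0 passed 2-fold in either direction at 5 µM (0.0585% and 0.0668% of all genes) or at 10 µM (0.2% and 0.259% of all genes). With the median over the probe sets of a gene in place of the brightest, the Twist counts were 2 higher and 1 lower at 5 µM, and 3 and 3 at 10 µM. The share of all genes by that rule is not given here, so these counts are not read as a result about receptors. EGFR was higher and PDGFRB and EPHA4 were lower by 2-fold or more at both Cmp302 levels in Twist cells. The probe set read for ROR1 was lower as well, but its 2 further probe sets were higher.

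RNA quality moved with these changes. The 3′ minus middle log2 signal of the GAPDH and ACTB control probe sets, commonly read as a sign of RNA integrity, averaged 0.96, 0.36 and 0.45 in Twist cells with DMSO, 5 µM and 10 µM. In control cells it was 0.28, 0.45 and 0.83. The Twist DMSO array, to which both Cmp302 arrays of that line are compared, thus had the highest value of the 6. After subtracting the slope of each gene on this contrast over the control arrays, 1 member was 2-fold higher and 4 were lower at 5 µM. The member higher was then EPHB6, moved from 0.16 to 1.15, and no longer EGFR, which had 0.64. PTK7 was new among the lower ones, moved from -0.77 to -1.44. At 10 µM, 0 were higher and 6 lower. The share of all genes after this step is not given here. The contrast rose with the Cmp302 level in control cells, so this slope cannot be told apart from their Cmp302 change. For genes at the floor in control cells, such as PDGFRA and DDR2, the slope is 0 and nothing was subtracted. The part of RNA quality in the trends beyond this was not tested. The trend calls also rest on few arrays. Without the Twist array at 5 µM 2 members rose and 6 fell, where 12.5% and 14.9% of all genes did. Without any 1 of the other 5 arrays 0 rose and 0 fell, where 0% of all genes did either.

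EGFR rose in Twist cells by 0.65 ± 0.15 per level (limma adjusted p = 0.0344), to 1.14 above DMSO at 5 µM and 1.31 above it at 10 µM. Of its 5 fitted probe sets, 4 were called and the slopes ran between 0.36 and 0.75. With the quality slope subtracted the changes were 0.64 and 0.88, under 2-fold. In control cells EGFR changed by -0.15 and -0.46, and the difference of the slopes was 0.88 (limma adjusted p = 0.0554). FLT4, the VEGFC receptor, also rose, by 0.34 per level (limma adjusted p = 0.0304), but its Twist values of 3.77, 4.26 and 4.44 stayed close to the floor. Between single arrays the EGFR gap changed sign, as Twist cells were 2.19-fold below control cells with DMSO and 1.56-fold above them at 10 µM. This includes the control change of -0.46, and the EGFR slope difference was not called.

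Among the receptors that set Twist cells apart, PDGFRB fell by 0.74 per level (limma adjusted p = 0.034) and EPHA4 fell by 0.70 per level (limma adjusted p = 0.0318). Against DMSO, PDGFRB changed by -1.33 at 5 µM and -1.47 at 10 µM, and EPHA4 by -1.18 and -1.39. Only 1 of 4 EPHA4 probe sets was called, and the slopes ran between -0.70 and -0.10. PDGFRA did not pass the test, with a slope of -0.97 (limma adjusted p = 0.0595), as its values against DMSO were 0.19 at 5 µM and -1.94 at 10 µM. For EPHB6 they were 0.16 and -1.20, also with no call (limma adjusted p = 0.101).

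Among receptors with similar RNA in both lines or less in Twist cells, PTK7 fell by 0.76 per level (limma adjusted p = 0.0144), RYK by 0.52 (limma adjusted p = 0.0264), EPHA2 by 0.48 (limma adjusted p = 0.0288) and EPHB4 by 0.48 (limma adjusted p = 0.042). All 3 RYK probe sets and both EPHB4 probe sets were called lower, against 1 of 2 for PTK7, where the other gave -0.47 and was not called. EPHA2 had 1 probe set. PTK7 and EPHA2 also had negative values in control cells, -0.64 and -0.43 at 10 µM, and neither slope difference was called. In control cells at 10 µM the probe sets read for RYK and EPHB4 had 0.29 and -0.01. The further RYK sets had -0.50 and -0.77 there, and the further EPHB4 set had -0.44. No slope difference of these probe sets was called either. INSR was 0.85 and 0.80 above DMSO in Twist cells without passing the test (limma adjusted p = 0.107).

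**Figure D3:**
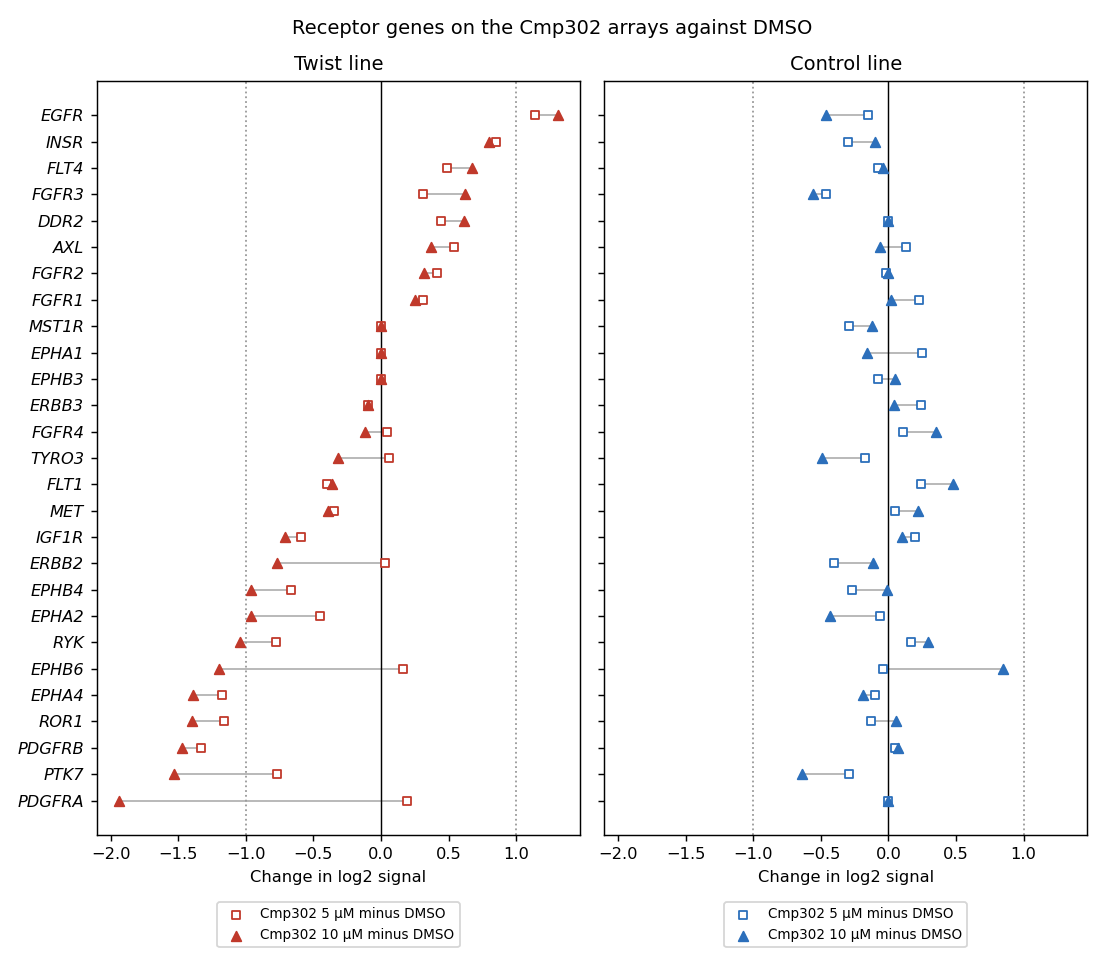
Change in log2 signal against DMSO (x axis) at Cmp302 5 µM (open squares) and 10 µM (filled triangles) for 27 receptor genes in the Twist line (left) and the control line (right), ordered by the Twist trend. In the Twist line EGFR lies at 1.14 and 1.31 and PDGFRA at 0.19 and -1.94, while no control value is beyond 0.85 in size, and dotted lines mark 2-fold.

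ROR1 and DDR2 show how far the trend rested on the probe set read. The brightest ROR1 probe set fell by 0.70 per level in Twist cells (limma adjusted p = 0.0315), yet the 2 further ones rose by 0.60 and 0.53, both called. They had 8.71, 9.74 and 9.90, and 6.57, 7.44 and 7.63, with DMSO, 5 µM and 10 µM. No direction is therefore given for ROR1. The DDR2 probe set read had a slope of 0.30 and was not called (limma adjusted p = 0.0814), while its 3 further ones rose by 0.80, 1.48 and 0.49, all called. One of them had 5.46, 7.69 and 8.41 in Twist cells against the floor in control cells. IGF1R probe sets also differed in sign, between -0.35 and 0.27, and none was called. Probe sets of 1 gene can lie at different distances from the 3′ end of the RNA, and their positions were not used here.

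**Figure D4:**
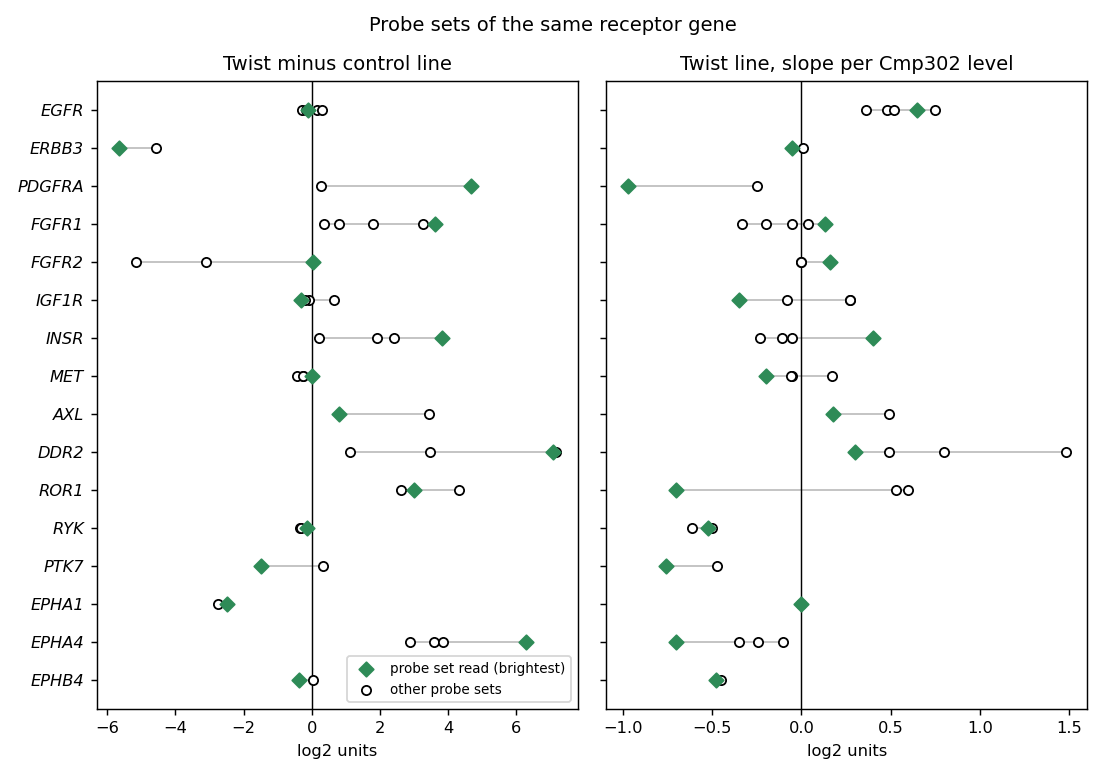
Fitted log2 differences for each probe set of the 16 receptor genes with at least 2 fitted probe sets, as the Twist minus control difference (left) and the Twist slope per Cmp302 level (right), with the probe set read for the gene as a green diamond. FGFR2 spans -5.17 to 0.04 between the lines, and ROR1 spans -0.70 to 0.60 in the Twist slope.

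Ligand genes of these receptors were read from a list of 49, of which 45 were on the array and 35 were fitted. Between the lines 8 were higher in Twist cells and 14 lower, where 13.7% and 14.9% of all fitted genes were. TGFA, BTC, NRG4, PDGFB, FGF11, EFNA1 and EFNA3 passed the filter through the control line alone. WNT5A, WNT5B, HGF and ANGPT1 passed it through the Twist line alone. The direction of these gaps was thus set by the filter, and the counts are no support for a ligand switch. TGFA, an EGFR ligand, was at the floor in Twist cells against 11.42, 11.48 and 11.46 in control cells, with a fitted difference of -7.74 ± 0.19 (limma adjusted p = 2.6e-05). EFNA1, the ephrin bound by EPHA1 and EPHA2, was at the floor in Twist cells against 8.71, 8.39 and 8.40 in control cells (-4.79 ± 0.17, limma adjusted p = 3.3e-05). WNT5A, a ligand of ROR receptors, had 12.00, 11.75 and 11.37 in Twist cells and the floor in control cells, a difference of 7.99 ± 0.23 (limma adjusted p = 2.6e-05). Its relative WNT5B had 8.78, 9.06 and 8.85 in Twist cells and the floor in control cells (5.18 ± 0.17, limma adjusted p = 2.8e-05).

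Ligands and receptors of one pair did not always run together. PDGFA, a PDGFRA ligand, was lower in Twist cells, at 8.48, 8.76 and 8.27 against 11.89, 11.54 and 11.39 in control cells (limma adjusted p = 0.000339), the reverse of its receptor. HGF, the MET ligand, had 5.70, 6.64 and 5.59 in Twist cells and the floor in control cells (limma adjusted p = 0.00149), while MET hardly differed. These 2 ligands were chosen after their values were seen. With Cmp302, 3 ligands rose and 5 fell in Twist cells, where 10.9% and 11.3% of all fitted genes did. HBEGF, an EGFR ligand shed from the membrane, rose by 1.20 per level (limma adjusted p = 0.0109), with 6.38, 7.93 and 8.77 in Twist cells and 11.22, 10.94 and 10.91 in control cells. VEGFC, the FLT4 ligand, rose by 0.77 per level (limma adjusted p = 0.0441), with 10.09, 11.58 and 11.63 in Twist cells and 11.07, 10.81 and 10.09 in control cells. Its changes from DMSO of 1.49 and 1.54 in Twist cells were 0.43 and 0.64 with the quality slope subtracted. ANGPT1, a TEK ligand, had 8.26, 7.35 and 5.89 in Twist cells (limma adjusted p = 0.00649 for the trend) and the floor in control cells, where a fall could not be seen.

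**Figure D5:**
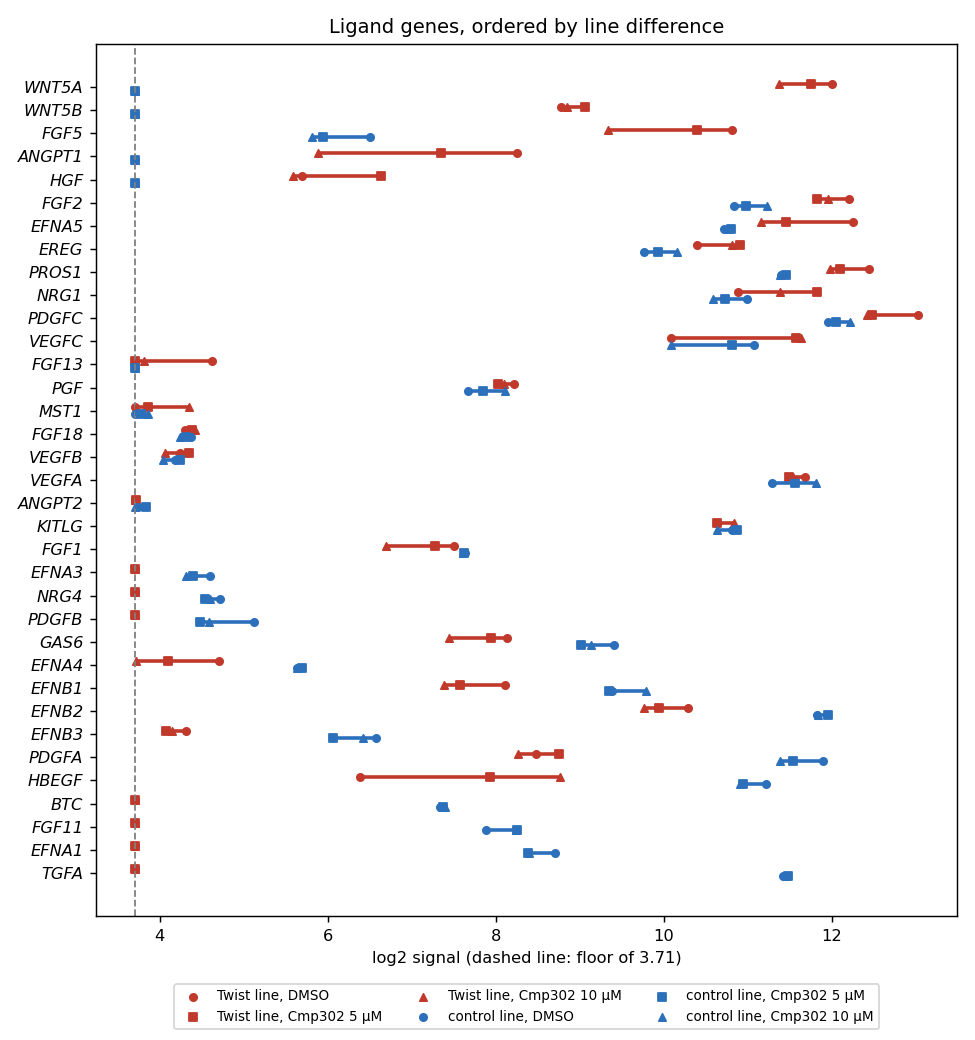
Log2 signal (x axis) of 35 fitted ligand genes on the 3 Twist arrays (red, upper row) and the 3 control arrays (blue, lower row), ordered by the line difference, with the floor of 3.71 dashed. WNT5A lies at 11.37 to 12.00 in the Twist line with control cells at the floor, and TGFA lies at the floor in the Twist line with control cells at 11.42 to 11.48.

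Some genes that act beside the receptors also differed between the lines. Of 23 fitted feedback inhibitors and turnover genes, 3 were higher and 3 lower in Twist cells, where 13.7% and 14.9% of all fitted genes were. LRIG1, which lowers the levels of ERBB receptors and MET, had 10.90, 10.99 and 10.91 in Twist cells and 4.75, 4.76 and 4.59 in control cells (6.23 ± 0.20, limma adjusted p = 2.7e-05). CBLC, an epithelial ubiquitin ligase for EGFR, was at the floor in Twist cells against 5.81, 5.52 and 5.57 in control cells (limma adjusted p = 0.000257), and its relative CBLB was higher by 1.52 (limma adjusted p = 0.0127). CBLC passed the filter through the control line alone, so the direction of its gap was set by the filter. The receptor phosphatase PTPRF had a difference of -1.51 (limma adjusted p = 0.0139). With Cmp302, 0 of the 23 rose and 5 fell in Twist cells, where 10.9% and 11.3% of all fitted genes did. Among the 5 was LRIG3, lower by 0.96 per level (limma adjusted p = 0.047). The probe set read for SPRED1, a RAS-MAPK inhibitor, was also called lower (-0.69, limma adjusted p = 0.0307), but its 3 probe sets ran between -0.69 and 0.32, so no direction is given.

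Of 21 fitted adaptors and proximal effectors, 3 were higher and 3 lower in Twist cells, where 13.7% and 14.9% of all fitted genes were. GRB10, an adaptor that restrains INSR and IGF1R, had 10.35, 10.59 and 10.87 in Twist cells and the floor in control cells (6.89 ± 0.21, limma adjusted p = 2.6e-05). GRB14, a relative with the same target, was the reverse, at the floor in Twist cells against 9.20, 8.96 and 9.21 in control cells (-5.41 ± 0.17, limma adjusted p = 2.7e-05). GRB10 passed the filter through the Twist line alone, and GRB14 and GRB7 through the control line alone. The direction of their gaps was thus set by the filter. NCK2 had a difference of -1.18 (limma adjusted p = 0.00774), and PLCG1, the phospholipase bound by many receptors, was higher by 1.14 (limma adjusted p = 0.0463). With Cmp302, 2 adaptors rose and 3 fell in Twist cells, where 10.9% and 11.3% of all fitted genes did. IRS1 fell by 0.68 per level (limma adjusted p = 0.0269), with all 3 of its probe sets called lower. PIK3R1 fell by 0.58 (limma adjusted p = 0.0245), a call made by 1 of its 3 probe sets, whose slopes ran between -0.58 and 0.

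Of 15 fitted co-receptors, binding proteins and sheddases, 5 were higher and 2 lower in Twist cells, where 13.7% and 14.9% of all fitted genes were. NRP1, a VEGF and semaphorin co-receptor, was higher by 1.65 (limma adjusted p = 0.00334), while NRP2 had 4.99, 4.63 and 5.04 in Twist cells and 8.68, 8.40 and 8.06 in control cells (-3.50, limma adjusted p = 0.000252). The IGF-binding protein IGFBP2 was higher by 3.47 (limma adjusted p = 0.000517), and IGFBP4 had 12.50, 13.13 and 12.89 in Twist cells and 9.91, 9.85 and 9.75 in control cells (limma adjusted p = 0.000362). With Cmp302 none rose and 2 fell in Twist cells, where 10.9% and 11.3% of all fitted genes did. Among the 2 was IGF2R, lower by 0.79 per level (limma adjusted p = 0.0161). Of 3 IGF2R probe sets 1 was called, with slopes between -0.79 and 0. IGFBP3 had the other wide trend difference, 0.61 per level, and was not called (limma adjusted p = 0.12). Of 17 receptor tyrosine kinases or related kinases on the array outside the 40, 13 were at the floor and 3 were fitted. All 3 were lower in Twist cells, where 14.9% of all fitted genes were. STYK1 was at the floor against 8.39, 8.52 and 8.51, LMTK2 had -1.37, and LMTK3 was at the floor against 4.75, 4.64 and 4.55 (limma adjusted p = 2.9e-05, 0.00574 and 0.00202). STYK1 and LMTK3 passed the filter through the control line alone.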

How the data were processed

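Total RNA of 6 HMLE samples was labelled and hybridised to U133 Plus 2.0 arrays, per the labels' protocols. The deposited values are log2 signals by probe set. The submitters' processing notes list GCOS 1.2 with no role given. How probes were summarised is not stated in the sources. The 62 control probe sets were left out, and each array was shifted by -0.03 to 0.01 to a common centre. Of the rest, 41091 probe sets had 1 gene symbol, 1801 several and 11721 none in the platform annotation. A gene was read by its single-symbol probe set of highest mean signal. The floor was the 50th percentile, 3.71. The 12478 genes above it on at least 2 arrays were fitted with limma 3.58.1 (R 4.3.3, eBayes with trend) and adjusted by Benjamini-Hochberg at 0.05. One fit held treatment and line, the other line and level, each with 2 residual degrees of freedom. The scripts were tested on simulated data. Precision is limited by the 6 arrays. Alternatives changed the floor, filter, scaling, probe set rule, level coding and arrays. Members and gene lists were chosen with earlier results of these data known. Receptors at least 2-fold apart between lines under DMSO, or at both Cmp302 levels, are given on every array, as are the other members above the floor where a result turns on them. From each pathway list, the 4 genes with the widest line difference and the 2 with the widest trend difference are named, beside a few chosen after their values were seen.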

Additional observations from a re-analysis of the deposited data

Results flagged for a closer look

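The Cmp302 trend of HBEGF, an EGFR ligand, differed between the lines by the test of the difference itself. HBEGF had 6.38, 7.93 and 8.77 in Twist cells with DMSO, 5 µM and 10 µM, against 11.22, 10.94 and 10.91 in control cells, and its slope per level was higher in Twist cells by 1.35 (limma adjusted p = 0.0436). Of its 4 probe sets, the 2 that were fitted gave 1.18 and 1.35. Without any 1 array other than the Twist array at 5 µM, the trend difference was called for 0 genes, so the HBEGF call was lost. The Twist DMSO array had the highest RNA quality contrast, 0.96. With the quality slope subtracted, the HBEGF changes from DMSO in Twist cells were 1.27 at 5 µM and 2.16 at 10 µM, against 1.55 and 2.40 before.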

How the results depend on the processing

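With 1 array per group, every call rests on the spread between lines or levels. Direction was kept in the alternatives run except for 3 values. The ROR1 Twist trend was 0.60 with the median over probe sets, the PTK7 line difference was 0.33 without probe sets marked _x or _s, and the FGFR2 line difference was -5.17 with the next brightest set, an alternative added after seeing the data; the cause was not tested. Twist trend counts moved most. The 2 members higher became 1 with the floor at the 65th percentile, 0 with no filter and 4 when any probe set of a gene was counted, and the 7 lower became 0 with no filter. With the floor at the 65th percentile 12% of all genes were called higher. With no filter 0.0405% of all genes were called higher and 0.0506% lower, so that loss was not particular to receptors. With the median over probe sets, members lower in Twist cells with DMSO numbered 4, those 2-fold higher and lower in Twist cells were 2 and 1 at 5 µM and 3 and 3 at 10 µM. Without _x and _s sets, 4 were lower in Twist cells at 10 µM. Without the DMSO pair, 11 were lower in the line fit, where 30.7% of all genes were. With levels coded 0, 1 and 1 the trend difference was called for 3 higher and 5 lower members, and for 12.6% and 13.9% of all genes. With the quality slope subtracted, 0 were 2-fold higher at 10 µM. Leaving out each array gave 0 to 2 higher and 0 to 6 lower in the Twist trend, 8 to 11 higher and 6 to 11 lower between lines, 6 to 7 lower with DMSO, 4 to 6 lower without overlap, and 0 to 2 higher and 0 to 5 lower in the trend difference. The 11 and 11 came without either DMSO array, and the 2 and 5 without the Twist 5 µM array. Over all genes these fits called 0% to 12.5% higher and 0% to 14.9% lower in the Twist trend. Between lines they called 8.93% to 29.7% higher and 10.7% to 30.6% lower. In the trend difference they called 0% to 9.2% higher and 0% to 10.8% lower. Of 15 line calls, AXL lost its call in 7 alternatives, PTK7 in 3, and EPHA1 and EPHB6 in 1 each.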
